A study of Caenorhabditis elegans with 2 samples.

Results

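E01G4.7, E01G4.5, C40A11.10, F52D2.6 and Y43F8B.9 are 5 Caenorhabditis elegans genes that carried narrow clusters of small RNAs on the antisense strand of their exons. They are counted as targets of ERGO-1, the Argonaute protein of the oocyte and embryo branch of the 26G siRNA pathway. The genes were chosen by a measured value, as those of an ERGO-1 target list with the most reads in antisense clusters of exactly 26 nt. That quantity is therefore described here without a test and supports nothing by itself. Their clusters were all those whose annotation names an exon of 1 of the 5 genes in sense or in antisense. This gave 77 clusters with 587 reads, out of 41178 clusters on exons of 8245 genes.

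The series sequenced small RNAs from whole worms of the strain fem-1 and holds 2 libraries, polyphosphatase and monophosphate, 1 in each group. fem-1 promotes male fates, and hermaphrodites that lack it form oocytes but no sperm. Of the worms, the allele, age and culture temperature are not stated in the labels. The clusters belong to the monophosphate library, which was made without the enzyme treatment that opens triphosphate 5′ ends to cloning. The polyphosphatase library was not analysed here. With 1 library there was no replicate and no test between conditions, so intervals are exact 95% intervals for counting error only, and single reads cannot be taken as separate molecules.

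26G siRNAs are primary siRNAs of the worm. The RNA-dependent RNA polymerase RRF-3 copies a target messenger RNA, and Dicer with its ERI cofactors processes the product into short antisense RNAs with a 5′ monophosphate. HENN-1 methylates the 3′ ends of those bound by ERGO-1. Their targets are often recently duplicated genes and pseudogenes, on which the pathway starts the production of triphosphate-bearing 22G secondary siRNAs. In the current WBcel235 gene table, E01G4.7 is typed as a pseudogene and C40A11.10 as the miRNA gene mir-8199, and the remaining genes as protein-coding. The annotation in the deposited list treats every one of the 5 as a coding transcript with numbered exons.

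The whole list of clusters held 1417144 reads in 51569 clusters, of which 1412353 reads lay on chromosomes, and 11368 reads lay antisense to exons and not also in sense to one. Sense reads were found for 8 of 8 oocyte and embryo marker genes (681 reads) and for 3 of 3 yolk protein genes (8640 reads). For sperm marker genes they were found in 3 of 7 (3 reads). Over the whole list 7306 genes had sense exon reads. The marker genes were not compared with these, and no tissue content is read from the counts.

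Antisense reads outnumbered sense reads on each of the 5 genes. Together they had 504 antisense reads in 49 clusters and 83 sense reads in 28 clusters, so 85.9% of the reads (95% interval 82.8 to 88.6) were antisense. Of the 504 antisense reads, 334 lay in the 26 nt clusters by which the genes were chosen, so the choice raises this share. E01G4.7 had 246 antisense and 20 sense reads (92.5% antisense, 88.6 to 95.4). F52D2.6 had 75 antisense and 6 sense reads (92.6%, 84.6 to 97.2), and Y43F8B.9 had 21 antisense and 2 sense reads (91.3%, 72.0 to 98.9). E01G4.5 had 72 antisense and 14 sense reads (83.7%, 74.2 to 90.8). C40A11.10 had 90 antisense and 41 sense reads (68.7%, 60.0 to 76.5), and its interval lies below those of E01G4.7 and F52D2.6. Of its reads, 72 antisense reads lay in 1 cluster and 20 sense reads were 1 distinct sequence. The interval treats reads as independent, and a difference between genes was not tested.

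Most of the antisense reads lay in clusters of 26 nt, the upper end of the size range of 18 to 26 nt in the title of the deposited list. If that range limits read length, longer reads are not seen, and wider clusters are joined from reads at different positions. Widths are those of clusters, and shorter reads can lie inside a cluster with several distinct sequences. Clusters wider than 26 nt can likewise hold reads of 26 nt, which are not counted at that width. Clusters of 26 nt held 334 of the 504 antisense reads, or 66.3% (62.0 to 70.4), and clusters wider than 26 nt held 153 (30.4%). All other widths from 18 to 25 nt shared 17 reads between them. Clusters 22 nt wide held 5 reads (0.992%), all on E01G4.5, against 18.9% of antisense exon reads of the other genes. The 504 reads include the 334 by which the genes were chosen, and this lowers the share of every other width. The comparison at 22 nt therefore cannot show whether the 5 genes lack reads of that width, and the difference was not tested. No antisense cluster was 19 or 23 nt wide, and a count of 0 among 504 reads allows a share of up to 0.595% in clusters of such a width. The 5 genes had antisense 26 nt clusters by the way they were chosen; among the 3385 genes with antisense exon reads, 91 (2.69%) had at least 1. In the other genes together 3.39% of antisense reads (3.06 to 3.75) lay in clusters of 26 nt.

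**Figure D1:**
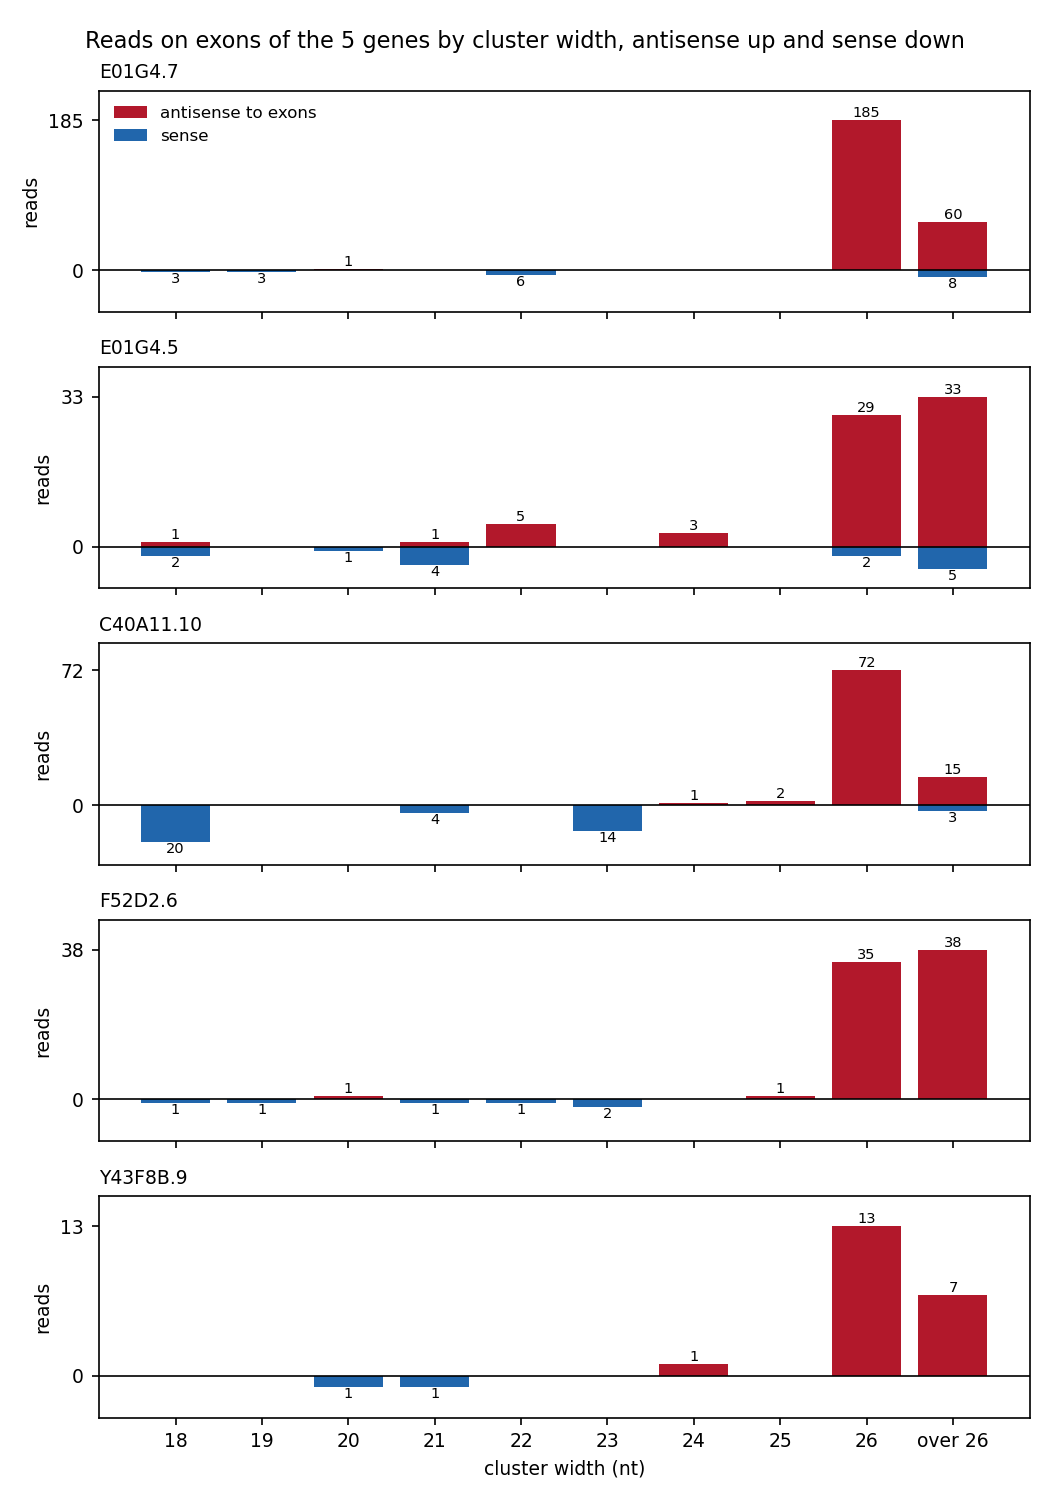
Reads on the exons of each gene (y axis, reads, antisense upward and sense downward, numbers printed on the bars) by cluster width (x axis, nt, with all clusters wider than 26 nt in the last position). Antisense reads stand at 26 nt and above, with 185 reads at 26 nt for E01G4.7 and 72 for C40A11.10, whereas sense reads spread over 18 to 23 nt and wider clusters.

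Few sense reads lay in clusters of this width. Sense clusters of 26 nt held 2 of 83 sense reads, or 2.41% (0.293 to 8.435), against 5.15% of the sense exon reads of the other genes. The interval includes the value of the other genes, so these counts do not set the 5 genes apart. No difference was tested. These 2 reads were 1 cluster on exon 4 of E01G4.5, so 1 of the 5 genes had a sense cluster of 26 nt, where 2045 of 7306 genes with sense exon reads (28%) had one. The other 4 genes had 2 to 41 sense reads and none at 26 nt; the highest of these totals, 41 for C40A11.10, allows a share of up to 7.32%. Sense reads stood instead at 18 nt (26 reads, 20 of them in 1 cluster of C40A11.10), 23 nt (16 reads), 21 nt (10 reads) and 22 nt (7 reads). Wider clusters held 19.3% of the sense reads of the 5 genes and 50.4% of those of the other genes.

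The 5 genes divided their 26 nt reads differently, some into 1 dominant position and others over many. The share of antisense reads at 26 nt was 80% (70.25 to 87.7) for C40A11.10, 75.2% (69.3 to 80.5) for E01G4.7 and 61.9% (38.4 to 81.9) for Y43F8B.9. It was 46.7% (35.05 to 58.6) for F52D2.6 and 40.3% (28.9 to 52.5) for E01G4.5. The intervals of F52D2.6 and E01G4.5 overlap each other and lie below those of C40A11.10 and E01G4.7, and that of Y43F8B.9 overlaps all the others. These intervals treat reads of 1 cluster as independent, although 1 cluster gave 72 reads in C40A11.10 and 181 in E01G4.7. They describe counting error in the values that chose the genes, and no difference between genes was tested. Of the 24 antisense clusters of 26 nt, 16 consisted of 1 distinct sequence, so there the width is the span of that sequence, and 11 held a single read.

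E01G4.7 had the most reads, and 1 position carried most of them. A cluster of 26 nt in coding sequence of exon 2 (chromosome II 13478283 to 13478308) held 181 reads (95% Poisson interval 156 to 209), or 73.6% of the gene's antisense reads. It contained 15 distinct sequences and 8 edits relative to the genome within the same 26 bases. The next cluster began after a gap of 1 base (13478310 to 13478335) and held 4 reads of 1 sequence, again 26 nt wide. The gene's other antisense reads lay mostly in wider clusters at its ends, 28 reads in 80 nt of the 5′ UTR in exon 1, 20 reads in 60 nt over the stop codon in exon 3, and 12 reads in 39 nt of the 3′ UTR. In sense it had 8 reads on exon 2, 11 on exon 3 and 1 on exon 1.

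C40A11.10 also had 1 leading position. Its single antisense cluster of 26 nt lay in the 3′ UTR in exon 3 (II 2136563 to 2136588) and held 72 reads (56.3 to 90.7) of 12 distinct sequences with 4 edits. Exon 2 had 18 antisense reads, none of them in a 26 nt cluster; 15 of these lay in clusters of 62 and 58 nt. Exon 2 also carried 39 of the gene's 41 sense reads. A sense cluster of 18 nt (2136739 to 2136756) held 20 reads (12.2 to 30.9) of a single distinct sequence, and one of 23 nt (2136663 to 2136685) held 12 reads of 4 sequences. Exon 2 of this gene thus had fewer antisense than sense reads. In the other 4 genes antisense reads outnumbered sense reads on each exon with at least 5 reads; exon 10 of F52D2.6, with 1 antisense and 3 sense reads, was below that number. The gene is annotated on the minus strand, so its antisense clusters lie on the plus strand.

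F52D2.6, on the X chromosome, had 35 antisense reads in 7 clusters of 26 nt. Exon 4 carried most of the gene's antisense reads, 66 of 75. Its leading 26 nt cluster (1976243 to 1976268) held 27 reads (17.8 to 39.3) of 4 distinct sequences, and a further cluster of 26 nt (1976408 to 1976433) held 3. On the same exon 2 clusters were exactly 52 nt wide, with 8 reads at 1976188 to 1976239 and 27 reads at 1976331 to 1976382. The second of these has a uniqueness value of 19, against 50 for the first; this value, deposited without a unit, measures how unique the placement is. On exons 6 and 10 the gene had only single-read clusters on the antisense strand, 5 of 26 nt and 1 of 25 nt. The 6 sense reads were 6 separate clusters of 18 to 23 nt.

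E01G4.5 had the most clusters, 18 in antisense over all of its exons from 1 to 6. Of these, 8 were 26 nt wide and held 29 reads, with 9 reads on exon 5 (II 13473648 to 13473673), 7 on exon 1 (13472488 to 13472513), 5 and 4 at positions on exons 2 and 4, and single reads at the others. The 9-read cluster had a uniqueness value of 12 against 52 for the 7-read cluster. Its largest cluster was not 26 nt but 45 nt wide (17 reads, exon 4). E01G4.5 was the gene of the 5 with antisense 22 nt clusters, 3 reads and 1 read on exon 2 and 1 read on exon 5.

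Y43F8B.9, on chromosome V, had the fewest reads. Its 13 reads at 26 nt were spread over 6 clusters of 1 to 4 reads. Of these, 7 reads lay in 3 clusters in the 5′ UTR part of exon 2, led by 4 reads at 19479855 to 19479880. Exon 3 had 5 reads in 2 clusters and exon 4 had 1 read, beside a 38 nt cluster of 7 reads. The gene stands at the boundary of the selection. With 13 antisense reads at 26 nt it was the fifth on the list, and Y37E11B.2, with 7, was the next and was not included.

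**Figure D2:**
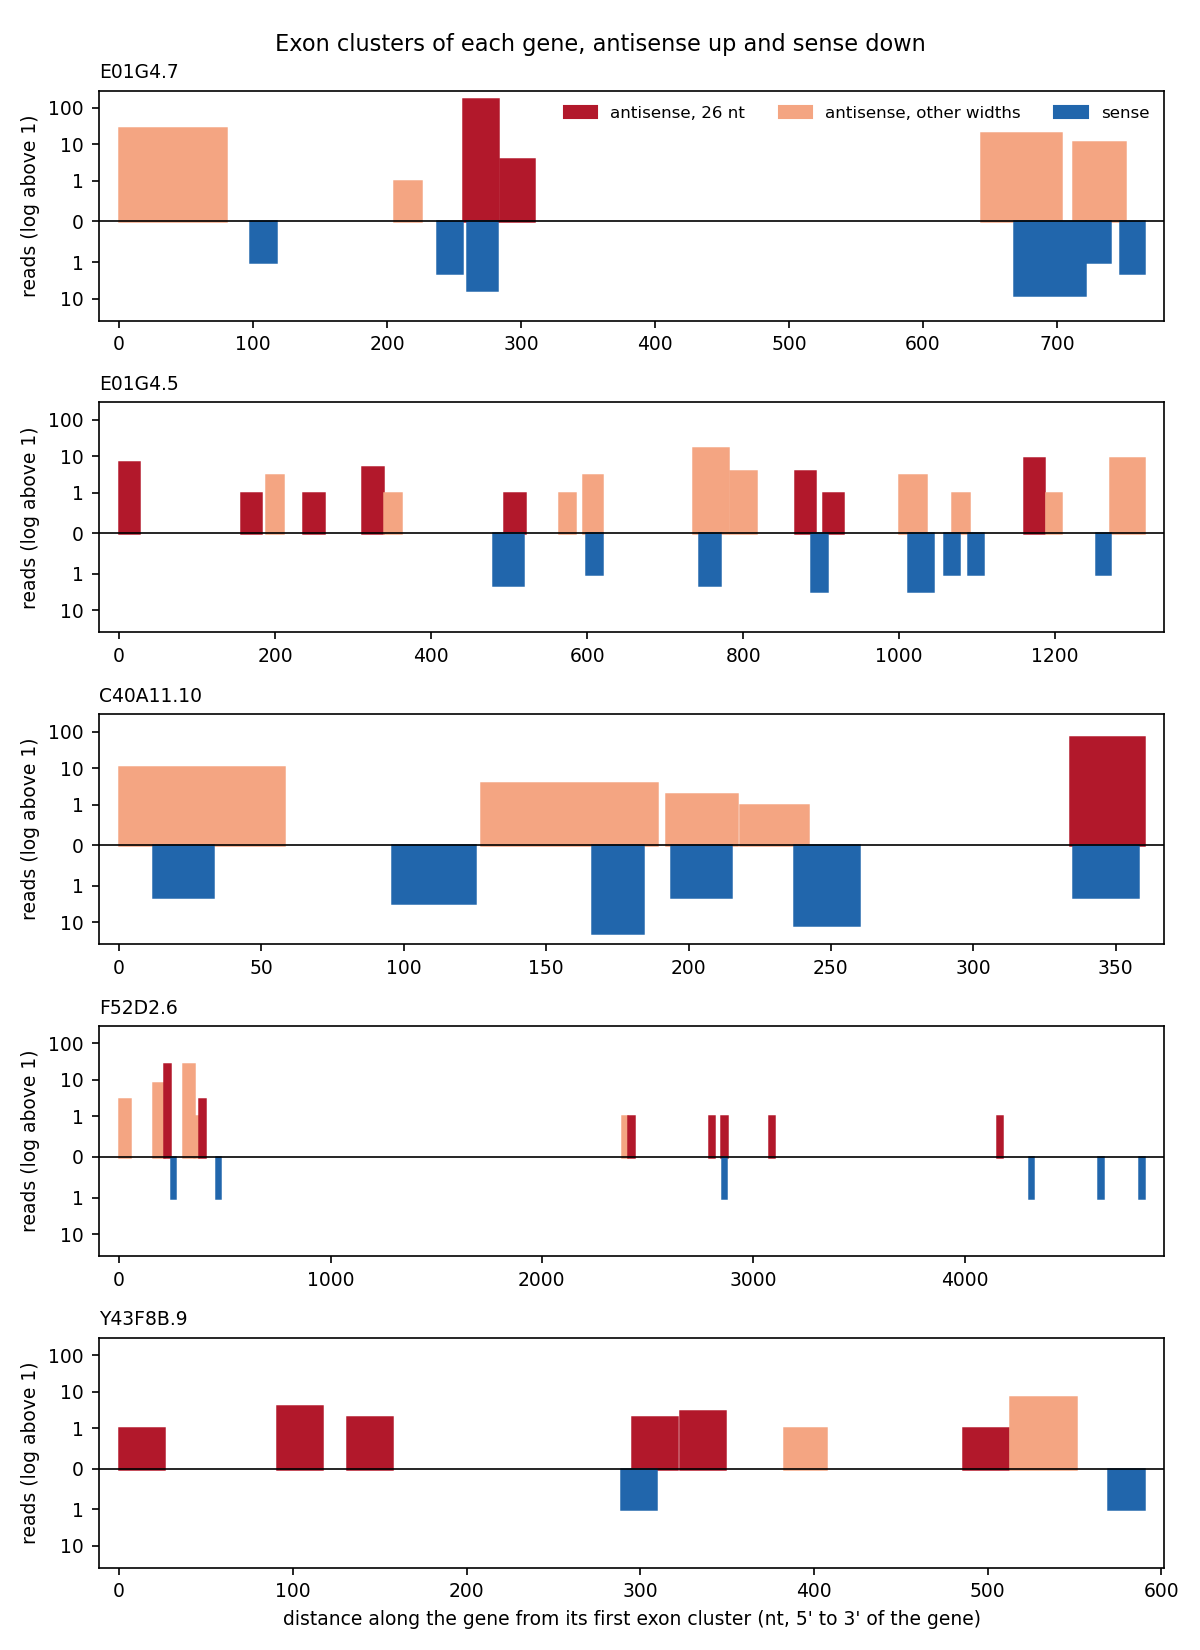
Clusters on the exons of each gene along its length (x axis, nt from the first exon cluster in the direction of the gene; the scale differs between genes), with reads on the y axis (linear to 1, logarithmic above; antisense upward, sense downward). Dark red marks antisense clusters of 26 nt, light red other antisense widths and blue sense clusters; E01G4.7 and C40A11.10 show 1 tall 26 nt cluster each (181 and 72 reads), and the clusters of the other genes are lower and more numerous.

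Part of the neighbouring antisense clusters lay almost end to end. On the antisense strand of their exons the 5 genes had 44 pairs of neighbouring clusters, and in 12 of them (27.3%) the gap was 1 to 3 bases. Among other genes 51 of 2675 such pairs (1.91%) had a gap of that size, but their clusters lie farther apart. Among pairs with a gap of at most 30 bases, the gap was 1 to 3 bases in 12 of 18 pairs (66.7%) of the 5 genes and in 51 of 387 pairs (13.2%) of the other genes. A gap of 0 was not found in either set; reads that overlap are joined into 1 cluster, so smaller distances are not visible. The other ERGO-1 targets had such gaps in 6 of 53 pairs (11.3%), with 27 pairs at a gap of at most 30.

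Every one of the 5 genes had at least 1 such pair on the antisense strand. Between the 2 clusters of 26 nt on exon 2 of E01G4.7 the gap was 1 base, which puts their starts 27 bases apart. On exon 3 of Y43F8B.9, 2 clusters of 26 nt (19480059 to 19480084 with 2 reads, 19480087 to 19480112 with 3 reads) were 2 bases apart, and their starts 28. On exon 6 of F52D2.6 a 25 nt and a 26 nt cluster of 1 read each were separated by 3 bases (starts 28 apart), and on its exon 4 the leading 26 nt cluster began 3 bases after the first of the 52 nt clusters. On exon 2 of E01G4.5 a 26 nt and a 22 nt cluster were 2 bases apart. In 8 of the 12 pairs at least 1 cluster was 26 nt wide. Of all 49 antisense clusters of the 5 genes, 24 had this width, by which the genes were chosen. The 8 pairs therefore show no link between small gaps and 26 nt clusters, and none was tested. On the sense strand 1 of 23 neighbouring pairs (4.35%) had such a gap, against 2.69% in other genes.

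**Figure D3:**
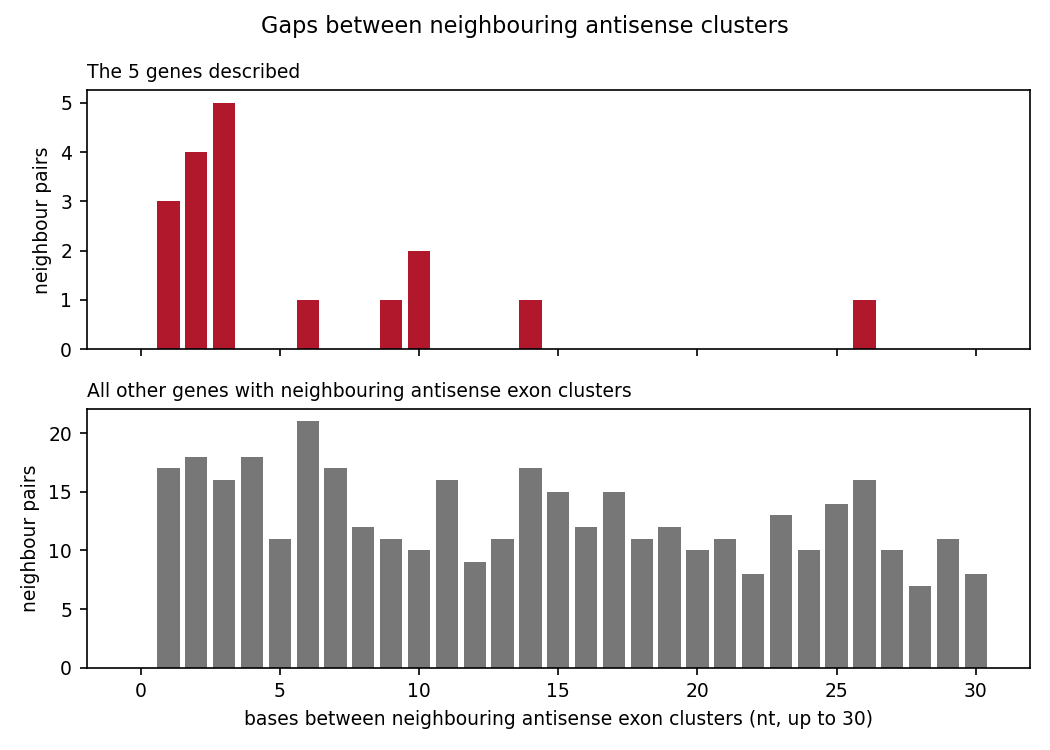
Number of neighbouring pairs of antisense exon clusters (y axis) by the number of bases between them (x axis, up to 30 nt), for the 5 genes above and for all other genes below. In the 5 genes 12 of 18 pairs fall at 1 to 3 bases, and in the other genes the 387 pairs are spread over all distances.

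Sense clusters lay opposite a part of the antisense clusters. Dicer products are double-stranded, so the ends of both strands were compared. Of the 24 antisense clusters of 26 nt, 7 (29.2%, 12.6 to 51.1) overlapped a sense cluster of the same gene by at least 1 base, and 4 (16.7%) by at least 15 bases. Among the antisense 26 nt clusters of other genes, 20 of 121 (16.5%, 10.4 to 24.4) overlapped a cluster on the other strand, and the intervals overlap. In 3 of the 24 (12.5%, 2.66 to 32.4) the sense cluster was flush, meaning that it lay inside the antisense cluster with at most 3 bases left free at either end; in other genes this held for 5 of 121 (4.13%, 1.36 to 9.38).

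The flush pairs came from 3 genes. Opposite the 181-read cluster of E01G4.7 lay a 22 nt sense cluster of 6 reads and 2 distinct sequences (II 13478286 to 13478307). The antisense cluster extended past it by 1 base at its own 5′ end and by 3 bases at its 3′ end. The same ends, 1 and 3 bases, were found on exon 6 of F52D2.6, where an antisense 26 nt read faced a sense 22 nt read (X 1978881 to 1978902). For the 72-read cluster of C40A11.10, the 23 nt sense cluster of 2 reads left 2 bases at the 5′ end and 1 base at the 3′ end of the antisense cluster. In the flush pairs of other genes the bases free at the 5′ and 3′ ends were 3 and 0 in 2 pairs, and 0 and 3, 1 and 3, and 3 and 3 in 1 pair each. The sense reads opposite are few, so that sense took 6 of the 187 reads in the pair of E01G4.7, and 2 of 74 in that of C40A11.10. Antisense clusters narrower than 26 nt also had flush partners, a 25 nt cluster of C40A11.10 with 2 and 2 bases free and a 24 nt cluster of E01G4.5 with 0 and 3. The remaining 4 of the 7 overlaps were partial or with a wider sense cluster, 3 of them on E01G4.5 and 1 on Y43F8B.9.

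**Figure D4:**
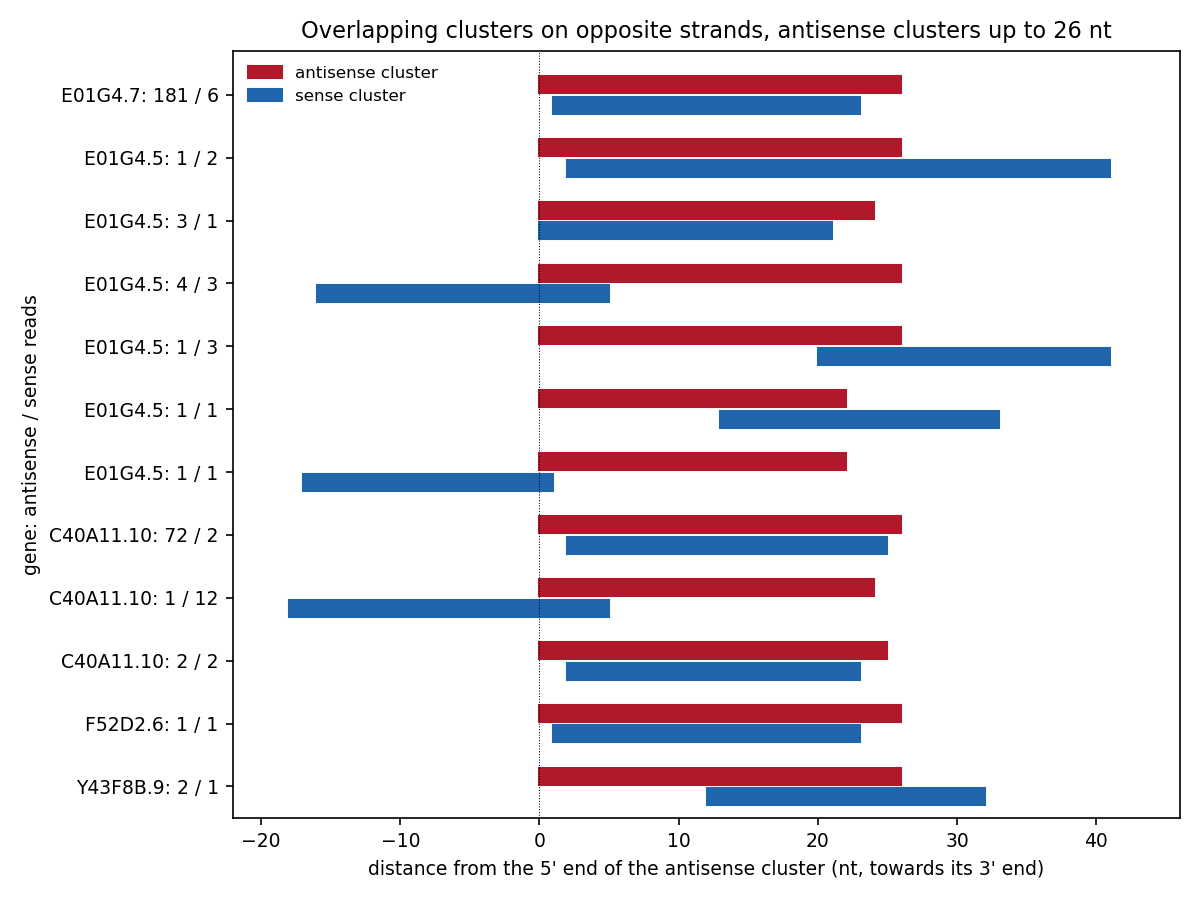
Antisense clusters of at most 26 nt (red) and the sense clusters that overlap them (blue), aligned at the 5′ end of the antisense cluster (x axis, nt); the labels give the gene and the antisense and sense reads. In the pairs of E01G4.7 (181 and 6 reads) and F52D2.6 (1 and 1 read) the antisense cluster is 1 base longer at its 5′ end and 3 bases longer at its 3′ end.

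Within the ERGO-1 target list the 5 genes had a higher share of antisense reads at 26 nt than the others together. They were chosen by the number of such reads, which favours a high share. The other 20 targets had 675 antisense reads, of which 38 (5.63%, 4.01 to 7.65) lay in 26 nt clusters and 608 (90.1%) in wider ones. Antisense reads made up 85.9% (82.8 to 88.6) of exon reads in the 5 genes and 60.65% (57.7 to 63.5) in the others, which had 438 sense reads. The antisense reads of the 5 genes include the 334 at 26 nt that chose them. Part of this difference was therefore set by the choice, and it was not tested. By gene the ranges overlapped. Among the others with antisense reads, the lowest shares were 30.6% antisense for F55C9.5 and 42.1% for T05E12.8. High shares were 89.4% for C44B11.6, 91.3% for Y17D7B.4 and 100% for ZK380.5, while C40A11.10 of the 5 genes had 68.7%. E01G4.3, C08F11.7, ZK402.5 and fbxa-65 had 1 to 5 sense reads and no antisense read. Of the 20 other targets, 14 had antisense reads and 9 had any at 26 nt, with shares of 4.23% for K02E2.6 to 23.8% for Y17D7B.4 where at least 10 antisense reads were present. The F-box gene fbxb-37, with 94 antisense reads, had none in a cluster of 26 nt. Counted as independent reads, this allows a share of up to 3.19% in such clusters. All 94 lay in 2 wider clusters, whose reads may include some of 26 nt. ZK380.5, F55C9.5, C44B11.6 and T05E12.8, with 30 to 88 antisense reads, also had no antisense cluster of 26 nt, and most of their antisense reads lay in wider clusters.

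Of genes other than the 5, 121 had at least 10 antisense reads, further ERGO-1 targets among them. Those most like the 5 by share of antisense reads at 26 nt were T02G6.4, Y82E9BR.6, F59C12.4, C28C12.2 and F31A9.4, all outside the list. T02G6.4 had 13 of 13 antisense reads at 26 nt in 1 cluster, and Y82E9BR.6 13 of 13 in 2. F59C12.4 had 15 of 17 (88.2%). C28C12.2, named mesp-1 in the gene table, had 100 of 114 (87.7%, 80.25 to 93.1) in 1 cluster, so that, as in E01G4.7 and C40A11.10, 1 position led. F31A9.4, the F-box pseudogene fbxc-37, had 11 of 19 (57.9%) in 5 clusters, a spread more like that of Y43F8B.9. Antisense reads made up 84.6% of the exon reads of these 5 genes together, which were also picked by their antisense reads.

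**Figure D5:**
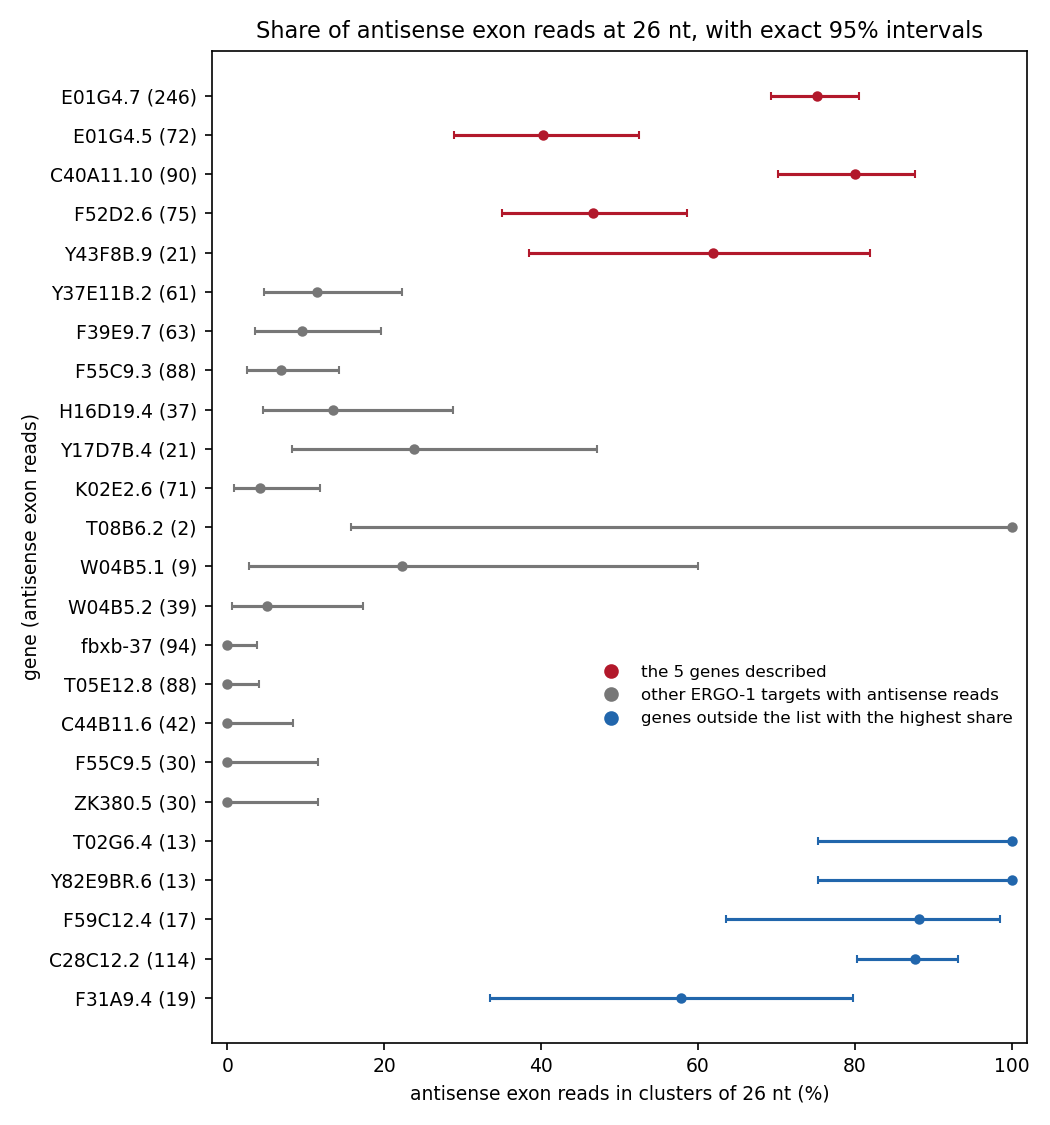
Share of antisense exon reads in 26 nt clusters (x axis, %) by gene, with exact 95% intervals and the number of antisense reads in brackets. The 5 genes (red) lie between 40.3% and 80%; other ERGO-1 targets (grey) lie at or below 23.8% except T08B6.2, which has 2 reads, and the genes outside the list with the highest share (blue) at 57.9% or above.

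A list of 19 genes of the 26G pathway and of the secondary siRNA steps that follow it was also counted. Sense reads were found for 15 of them (119 in total), led by the double-stranded RNA binding protein gene rde-4 with 25, ergo-1 with 20, the secondary siRNA gene mut-16 with 16 and the Dicer gene dcr-1 with 15. Antisense reads were found for 9 of them, 22 in total with 6 for dcr-1, and none in a cluster of 26 nt, which allows a share of up to 13.6%; 2.69% of all genes with antisense exon reads had such a cluster. No read on either strand was found for eri-5, sago-2 and the Argonaute genes alg-3 and alg-4, of which alg-3 and alg-4 act in the sperm branch. Over the whole list 7306 genes had sense exon reads and 3385 had antisense exon reads. Whether the pathway genes differ from these was not tested. Sense reads in a library of short RNAs give no level of expression.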

How the data were processed

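Per the labels, RNA of whole fem-1 worms was extracted with TRIZOL, and an Illumina small RNA protocol was used for the libraries. The deposited list holds clusters of overlapping reads with raw read counts of 1 library, without normalization. Its title gives a size range of 18 to 26 nt, and its sum is therefore no measure of sequencing depth. The abbreviated title matches the monophosphate sample alone, which is the basis of the assignment. Bowtie2 2.1.0 is named, per the submitters' processing notes; the genome build, annotation release and filters are not given in the sources used here. A score column of the deposited list, the entropy of a cluster, and other deposited values such as conversion counts were not used.

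Exon names in the annotation gave gene, exon and strand. Width is the outer span of all reads of a cluster. No cluster was filtered, apart from those on a sequence named markov. The uniqueness value equalled 2 times the width in 44 of 46 clusters with 1 distinct sequence. Exact 95% intervals were Clopper-Pearson for shares and Poisson for counts (SciPy 1.17.1, Python 3.11.15); a count of 0 allows 3 counts. Functions were tested on simulated data. Genes, lists and rules were chosen with earlier results of these data known. All 25 genes of the ERGO-1 list, the 5 included, matched the WBcel235 table, from which only names and gene types were taken. Further named genes belong to the lists or are the 5 most alike in antisense share at 26 nt with at least 10 reads. Alternatives were clusters or distinct sequences in place of reads, another width range, a uniqueness minimum of 10, no edits, narrow clusters, a longer overlap and leaving out E01G4.7. Sequences were not used here.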

Additional observations from a re-analysis of the deposited data

Results flagged for a closer look

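Reads outside the exons were not part of the selection. They were flagged for exceeding the 3 counts that a count of 0 allows, which is no background level for such regions. The same regions of other genes were not compared. Upstream of E01G4.7, in the stretch annotated as its promoter, 4 clusters held 72 antisense reads, of which 57 lay in 1 cluster of 46 nt (chromosome II 13477720 to 13477765) and 71 in clusters wider than 26 nt. The same stretch held 15 sense reads in 6 clusters, and 1 of these, 23 nt wide with 5 reads, ended at the same base as the 57-read cluster. In introns of F52D2.6, 5 clusters held 10 antisense reads, 8 of them in 4 clusters of 26 nt; 2 of these, in intron 2, were 1 base apart (X 1975943 to 1975968 and 1975970 to 1975995). Downstream of E01G4.7 and E01G4.5, 6 clusters held 8 antisense reads, 3 of them at 26 nt. The E01G4.5 clusters, of 1 read each, had uniqueness values of 2 (26 nt) and 6 (25 nt). The 26 nt clusters of E01G4.7 had 52. The library has no control sample for these counts.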

How the results depend on the processing

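Of 28 values under another setting, 14 stayed within the counting interval of the reported value, 14 did not, and none has a test. The antisense share of the reads on the 5 genes (85.9%) was 63.6% with each cluster counted once, 76.3% by distinct sequences, 80.4% without E01G4.7 and 69.3% in clusters with no edit. The share of antisense reads at 26 nt (66.3%) was 49.0%, 38.5%, 57.75% and 26.2% under the same settings, and 95.2% among clusters of 18 to 26 nt. The share of all antisense exon reads at 26 nt that lay on the 5 genes was 47.6%, and 16.55%, 23.3%, 21.2% and 11.75% under those settings, and 34.7% at 25 to 27 nt. With E01G4.7, 1 cluster of 181 reads leaves the counts of the 5 genes. In the last of these shares its reads were taken from the genes' count only. The 21.2% is 149 reads out of 702, a total that still includes the 185 of E01G4.7, so it overstates the fall. Leaving out clusters with an edit takes 5 of the 24 clusters and 285 of 334 reads, those with the most reads among them. The share of sense reads at 26 nt and the share of clusters with an opposite cluster stayed within their counting intervals under each setting tried, although the share with an opposite cluster was 16.7% with an overlap of at least 15 bases, against 29.2%. Single-read clusters limit what the small genes show. No paired analysis was possible because the series has 1 library per group and only 1 of them was analysed.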
